A study of Homo sapiens with 6 samples.

Results

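The genes described here have symbols that begin like those of certain transporter families. These are the ATP-binding cassette (ABC) pump families A to D and G, and the organic ion transporter families SLCO, SLC10A, SLC22A, SLC47A and SLC51. The genes were chosen by gene symbol, with pseudogenes left out. Of the 14812 genes named in the annotation of the array, 4 met the rule. Of these, 2 encode proteins, SLC51A and SLC51B, which are the subunits of 1 bile acid exporter, and 2 are antisense RNAs named after transporter genes, ABCC5-AS1 and SLCO4A1-AS1. No ABC pump and no uptake transporter was among them. Of 86 transporter genes that had been given a class, 84 were not analysed here, so 0 uptake members stood against 2 export members and uptake could not be compared with export. What follows is therefore an account of the organic solute transporter OSTα-OSTβ, of the antisense RNAs, and of the genes around bile acid transport that were measured. Measured means here that a gene carried a symbol in that annotation, where 28794 of 44629 probe sets were not named. Whether the array held probe sets for the other listed genes was not examined.

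The samples were HuH7 cells, a human hepatoma line, in 2 groups of 3 arrays of total RNA. Cells of the EGOT gapmer group received 50 pmol of an oligonucleotide against EGOT, a long noncoding RNA induced by double-stranded RNA, and cells of the control gapmer group received 50 pmol of a control oligonucleotide. Gapmers carry a DNA stretch between chemically modified flanks, and RNase H cuts the RNA that pairs with the DNA. Both groups also carried 0.3 µg of a plasmid expressing the kinase PKR and poly I:C, an artificial double-stranded RNA, and RNA was taken at 36 hours. The design thus has 1 oligonucleotide against EGOT, no cells without PKR and poly I:C, and no cells given bile acids or a drug. Whether arrays of 1 group stem from separate cultures is not stated in the labels, and the p-values below therefore rest on a spread that may be technical.

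The sequences stated as the targets of the oligonucleotides are shown because they define the groups.
EGOT gapmer: agagacacttagaaga
control gapmer: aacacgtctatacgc

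Bile acids are made from cholesterol in hepatocytes, secreted into bile, taken up again in the ileum and returned to the liver by the portal vein. OSTα-OSTβ is the exporter of the basolateral membrane. It carries bile acids and steroid conjugates down their gradient out of ileal enterocytes, and in hepatocytes it serves as a route back into the blood that is induced when bile flow is blocked. Both subunits are needed: OSTα, the product of SLC51A, is the protein with the many membrane spans, and OSTβ, the product of SLC51B, has a single span and lets the complex reach the cell surface. Both genes are known targets of FXR, the nuclear receptor for bile acids.

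The promoters of the subunit genes are shown because the genes are known to share that regulator. Each is the 250 bases before the RefSeq start site of the gene on the plus strand of GRCh38.p14, chr3:196216284-196216533 for SLC51A and chr15:65045137-65045386 for SLC51B. Capitals mark AGGTCA, the core hexamer of the sites that many nuclear receptors bind.
SLC51A promoter: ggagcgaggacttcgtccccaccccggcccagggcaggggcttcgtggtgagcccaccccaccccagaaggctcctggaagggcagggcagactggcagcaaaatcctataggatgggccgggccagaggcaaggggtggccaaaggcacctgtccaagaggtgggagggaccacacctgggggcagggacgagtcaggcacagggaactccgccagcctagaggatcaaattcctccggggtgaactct
SLC51B promoter: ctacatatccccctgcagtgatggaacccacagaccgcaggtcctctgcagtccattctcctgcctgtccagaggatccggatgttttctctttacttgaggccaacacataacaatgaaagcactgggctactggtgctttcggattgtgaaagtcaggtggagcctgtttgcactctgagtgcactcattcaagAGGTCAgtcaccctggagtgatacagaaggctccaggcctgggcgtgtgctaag

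Both coding members had an entry in the RefSeq promoter table. On either strand AGGTCA occurred once in the SLC51B window, 54 to 49 bases before the start, and 0 times in the SLC51A window. It occurred in 12.1% of the 35116 windows of that length in the table. The SLC51A window was richer in G and C, at 65.6%, than the SLC51B window, at 52.8%. No other motif was searched. A match of letters describes the window and is no evidence of binding.

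Levels are log2 values that the authors made with RMA, and differences are EGOT gapmer minus control gapmer on that scale, fitted with limma over all 14812 genes with Benjamini-Hochberg adjustment and a threshold of 0.05 on the adjusted p. EGOT, the targeted RNA, read 4.91, 4.90 and 4.69 in the EGOT gapmer arrays, against 6.29, 6.79 and 6.71 in the control gapmer arrays, a log2 difference of -1.76 (limma adjusted p = 0.0076). The groups did not overlap. Array medians over the named genes ran from 6.16 to 6.22 in the EGOT gapmer arrays and from 6.14 to 6.16 in the control gapmer arrays, with EGOT gapmer replicate 2 the highest. Correlations between arrays were 0.987 to 0.989 within the EGOT gapmer group and 0.991 to 0.992 within the control gapmer group. The 7 measured hepatocyte markers had mean log2 levels from 8.96 to 13.67, with albumin the highest, and 1 of them rose, the apolipoprotein gene APOA1, while 0 fell. Of 4 measured leukocyte markers 2 rose, CD68 by 1.06 and LYZ by 0.57 on the log2 scale. CD2, at 0.34 (limma adjusted p = 0.229), and CD14, at -0.06 (limma adjusted p = 0.736), did not pass. The summed log2 values of these 4 markers were 29.37 to 29.97 in the EGOT gapmer arrays and 27.58 to 27.98 in the control gapmer arrays. Among the measured markers of other cell types, 0 of 3 for cholangiocytes, 0 of 2 for endothelium and 0 of 1 for fibroblasts passed. Over all genes 8.41% passed, 5.20% higher and 3.21% lower. How the marker lists differ from that share was not tested. Of the 4 listed markers of proximal tubule and enterocytes, cell types that also carry OSTα-OSTβ, 2 were measured. VIL1, the gene of the brush border protein villin, rose by 0.30 on the log2 scale (limma adjusted p = 0.0362), and LRP2 differed by -0.01 (limma adjusted p = 0.933). Their summed log2 values were 15.06 to 15.16 in the EGOT gapmer arrays and 14.77 to 14.90 in the control gapmer arrays. The part of these markers in the results below was not tested. All samples were of the same hepatoma line, HuH7, so the marker lists label genes and do not count cells of those types. In RNA from whole cultures, the share of cells expressing a gene and its RNA per cell cannot be told apart.

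SLC51B had the higher values with the EGOT gapmer. It read 7.07, 7.43 and 7.16 in the EGOT gapmer arrays, against 6.79, 7.01 and 6.75 in the control gapmer arrays. Every EGOT gapmer array lay above every control gapmer array, with a gap of 0.059 between the nearest ones, so the separation was narrow. The means were 7.22 ± 0.190 with the EGOT gapmer and 6.85 ± 0.138 with the control gapmer (SD, n = 3 each). The log2 difference was 0.37 (standard error 0.119), or 1.29-fold, and its 95% interval ran from 0.09 to 0.65 before adjustment. It did not pass over all genes (limma adjusted p = 0.105; unadjusted, 15.5% of genes had a smaller p). An exact permutation test of the 6 values, two-sided, gave p = 0.1, the smallest that 3 arrays against 3 allow. At the standard error of this gene, a log2 difference of about 0.49 would have been needed to pass.

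SLC51A, the gene of the other subunit, had values that overlapped. It read 5.24, 5.52 and 4.91 in the EGOT gapmer arrays, against 5.45, 5.20 and 5.48 in the control gapmer arrays. The highest and the lowest of the 6 values both belonged to the EGOT gapmer group. The means were 5.22 ± 0.309 with the EGOT gapmer and 5.37 ± 0.153 with the control gapmer (SD, n = 3 each). The log2 difference, -0.15 (standard error 0.161), did not pass (limma adjusted p = 0.624). Its 95% interval, from -0.53 to 0.23, corresponds to 0.692-fold to 1.17-fold, so a fall or a rise of that size was not excluded by these arrays. The sign rested on EGOT gapmer replicate 3, without which the log2 difference was 0.01.

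**Figure D1:**
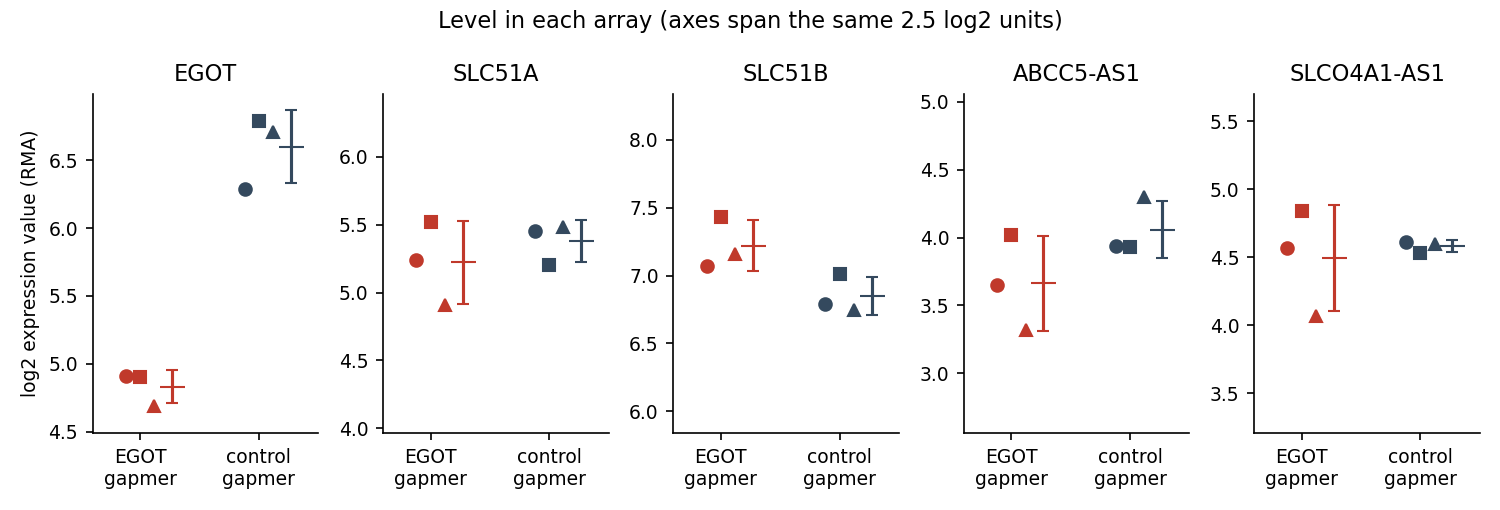
Log2 expression value of EGOT and of the 4 transporter family members in each array. EGOT gapmer is in red on the left of each panel and control gapmer in dark blue on the right. Circles, squares and triangles are replicates 1, 2 and 3, and bars are the mean ± SD. All axes have the same width in log2 units, but each is centred on its own gene, so heights cannot be compared across panels. The groups of EGOT lie far apart, those of SLC51B are separate by 0.059, and those of the other 3 genes overlap.

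The subunit genes were also set against each other within each array, a contrast chosen after their values were seen and therefore given as a description, with no test. It compares array values of different probe sets and does not measure the balance of the subunits. The SLC51B value minus the SLC51A value was 1.83, 1.91 and 2.25 in the EGOT gapmer arrays, against 1.34, 1.81 and 1.28 in the control gapmer arrays. The groups did not overlap, but control gapmer replicate 2, at 1.81, came close to EGOT gapmer replicate 1, at 1.83. Among single genes 31.7% had groups that did not overlap, and the share among contrasts of 2 genes was not computed. The SLC51B minus SLC51A contrast was 0.52 higher with the EGOT gapmer, and between 0.48 and 0.52 higher under another quantile normalization, cyclic loess or removal of the trend on gene span. A shift that both genes share in an array cancels in such a contrast, so these rescalings could change it little. The contrast was not computed with an array left out.

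**Figure D2:**
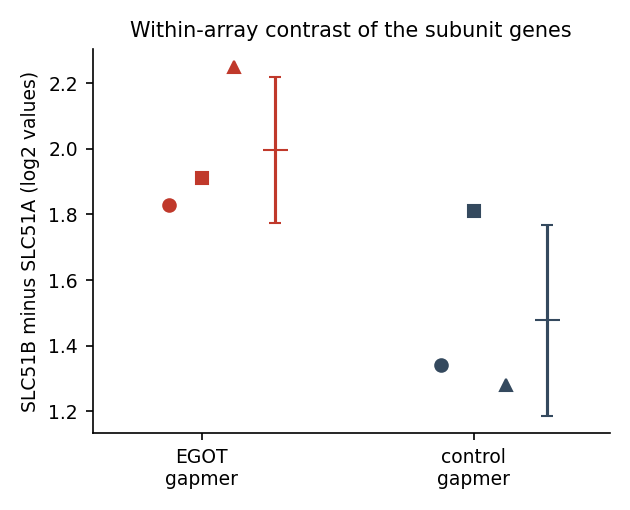
SLC51B minus SLC51A in log2 values within each array, EGOT gapmer in red on the left and control gapmer in dark blue on the right; circles, squares and triangles are replicates 1, 2 and 3 and bars are the mean ± SD. The EGOT gapmer arrays lie between 1.83 and 2.25 and the control gapmer arrays between 1.28 and 1.81.

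The subunit probe sets differed in where they stood among the named genes. SLC51B lay above the median of the named genes in all 6 arrays, and 65.7% of genes had a lower mean. SLC51A lay below that median in all 6 arrays, with 33.7% of genes lower. The background signal of either probe set was not measured.

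SLC51B kept its direction in all 13 alternative analyses, with log2 differences from 0.26 to 0.45. It passed in 2 of them, when the variance was allowed to depend on the level (limma adjusted p = 0.0293) and when only the brighter 7406 genes were tested (limma adjusted p = 0.0222). More genes passed in general there, 2513 of 14812 and 2547 of 7406, against 1245 of 14812 as deposited. In the other alternatives the limma adjusted p of SLC51B reached 0.264, the value without control gapmer replicate 3. The lowest SLC51B difference, 0.26, was the value without EGOT gapmer replicate 2. Removal of the trend on gene span left a log2 difference of 0.28 (limma adjusted p = 0.178). SLC51A passed in 0 of 12 alternatives. Its largest log2 difference was -0.30, the value without EGOT gapmer replicate 2.

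**Figure D3:**
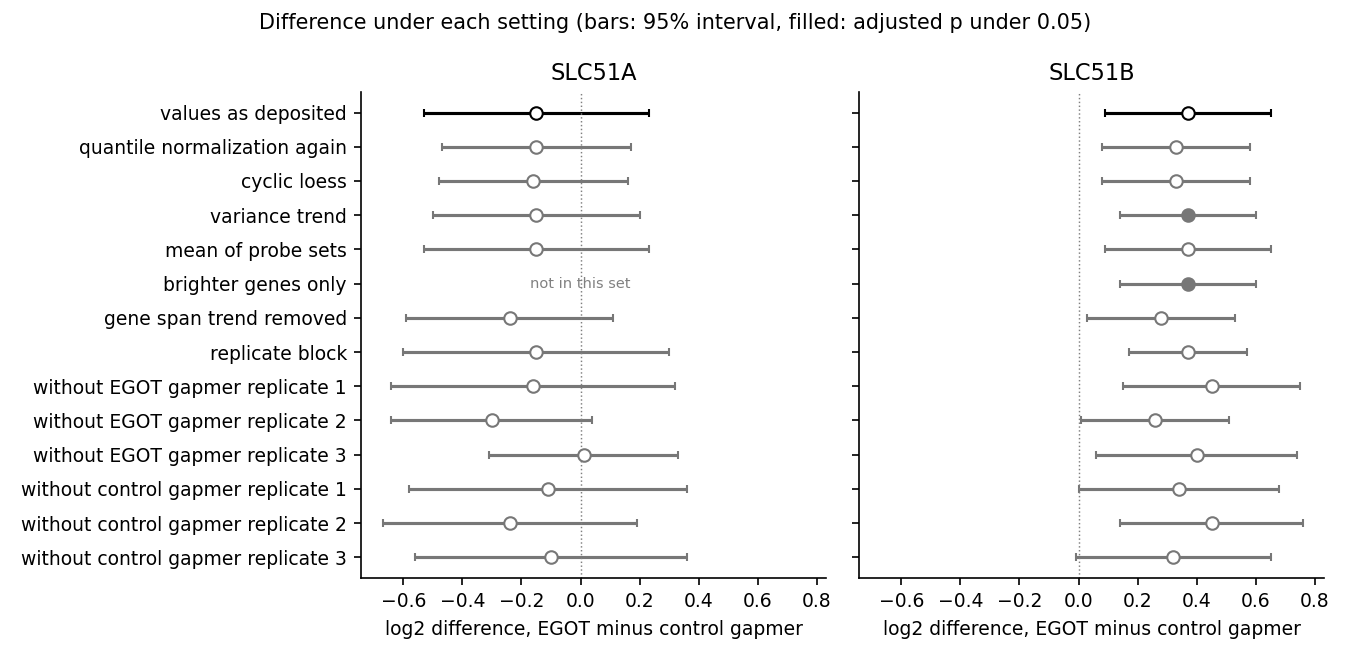
Log2 difference, EGOT gapmer minus control gapmer, of SLC51A (left) and SLC51B (right) in the values as deposited and in each alternative analysis; bars are 95% intervals before adjustment and filled points passed the threshold over all genes. The SLC51B points lie between 0.26 and 0.45 with 2 of them filled, and the SLC51A points lie between -0.30 and 0.01 with none filled.

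The antisense RNAs were dim. ABCC5-AS1, a noncoding RNA whose 5082 bases lie wholly inside the span of ABCC5, read 3.65, 4.02 and 3.32 in the EGOT gapmer arrays, against 3.94, 3.93 and 4.30 in the control gapmer arrays. EGOT gapmer replicate 2 lay among the control gapmer values and the other 2 lay below them. The log2 difference of -0.40 (standard error 0.186) did not pass (limma adjusted p = 0.242), and it ranged from -0.57 without EGOT gapmer replicate 2 to -0.23 without EGOT gapmer replicate 3. SLCO4A1-AS1, whose 3595 bases lie inside the span of SLCO4A1, read 4.57, 4.84 and 4.07 in the EGOT gapmer arrays, against 4.61, 4.53 and 4.60 in the control gapmer arrays. The control gapmer values were tight, with an SD of 0.0429, while the EGOT gapmer values lay on both sides of them with an SD of 0.392. The log2 difference was -0.09 (standard error 0.181, limma adjusted p = 0.816), and it was 0.12 without EGOT gapmer replicate 3. The coding genes on the other strand were not analysed here, and whether the probe sets read 1 strand is not given in the sources used here.

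The 3 dimmer members, SLC51A and both antisense RNAs, had the same order within the EGOT gapmer group, with replicate 2 highest and replicate 3 lowest. The medians over all probe sets had that order too, at 5.12, 5.23 and 5.08 in EGOT gapmer replicates 1, 2 and 3. SLC51B was also highest in EGOT gapmer replicate 2, at 7.43, but within that group it was lowest in replicate 1, at 7.07. After another quantile normalization, chosen for this purpose after the values were seen, the SD within the EGOT gapmer group was 0.237 for SLC51A, 0.277 for ABCC5-AS1 and 0.324 for SLCO4A1-AS1, against 0.309, 0.347 and 0.392 as deposited. The order stayed the same. The control gapmer SD of these 3 genes was between 0.0364 and 0.214 after that step.

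In all, 0 of the 4 members passed, against 8.41% of all genes tested, of which 5.20% were higher and 3.21% lower. At an unadjusted limma p under 0.05 the count was 1 of 4, SLC51B, against 25.0% of all genes. The groups did not overlap in 1 of the 4, again SLC51B, against 31.7% of all genes, and 20.2% of all genes were separated in the upward direction as SLC51B was. The median log2 difference of the members was -0.12 and that of all genes was 0.04.

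Among the genes around bile acid transport FGF19 fell and KEAP1 rose. Of 21 listed regulators of bile acid and transporter genes 10 were measured, of which 1 rose, 1 fell and 8 did not pass, with a median log2 difference of -0.09. Over all genes 8.41% passed, 5.20% higher and 3.21% lower, and the list's difference from that share was not tested. FGF19, the hormone that represses bile acid synthesis through the receptor FGFR4 and its partner KLB, and another known FXR target, read 7.85, 7.83 and 8.08 in the EGOT gapmer arrays, against 8.73, 8.74 and 8.73 in the control gapmer arrays. Each EGOT gapmer array lay at least 0.643 below each control gapmer array. It fell by 0.81 on the log2 scale, to 0.571-fold (standard error 0.0867, limma adjusted p = 0.00936).

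KEAP1, the adaptor that marks the redox factor NRF2 for destruction, read 8.70, 8.85 and 8.76 in the EGOT gapmer arrays, against 8.30, 8.22 and 8.20 in the control gapmer arrays, again without overlap. It rose by 0.53 on the log2 scale, or 1.44-fold (standard error 0.0742, limma adjusted p = 0.0146). The NRF2 gene itself, NFE2L2, differed by -0.08 (limma adjusted p = 0.629). Both calls were lost in some of the alternatives. FGF19 passed in 9 of 13 alternatives, with log2 differences from -0.90 to -0.76, and missed the threshold without control gapmer replicate 1, 2 or 3 (limma adjusted p = 0.0518 to 0.0563) and with the replicate number as a block (limma adjusted p = 0.0612). KEAP1 passed in 8 of 13, with differences from 0.44 to 0.57, and missed it without EGOT gapmer replicate 3 or any 1 control gapmer replicate (limma adjusted p = 0.0537 to 0.0744) and with that block (limma adjusted p = 0.0647).

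The receptor side of the FGF19 pathway did not pass. The log2 difference was -0.06 for FGFR4 (limma adjusted p = 0.699) and 0.12 for KLB, which encodes the coreceptor β-Klotho (limma adjusted p = 0.415). AHR, the receptor for dioxins and related compounds, read 10.06, 10.10 and 10.09 in the EGOT gapmer arrays, against 10.34, 10.36 and 10.32 in the control gapmer arrays. The groups were separate and the log2 difference was -0.26, which missed the threshold (limma adjusted p = 0.0516). The gene passed in 5 of 13 alternatives, including another quantile normalization (-0.30, limma adjusted p = 0.0279) and cyclic loess (-0.31, limma adjusted p = 0.0264). AHR missed the threshold with any 1 array left out (limma adjusted p = 0.0841 to 0.167). It also missed it with the replicate number as a block (limma adjusted p = 0.129) and with the mean of probe sets (limma adjusted p = 0.0527).

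Of 15 listed genes of bile acid synthesis 2 were measured, and neither passed. The groups did not overlap in 1 of the 2. Over all genes 8.41% passed and 31.7% had groups that did not overlap. BAAT, which joins bile acids to glycine or taurine, read 6.83, 7.08 and 7.04 in the EGOT gapmer arrays, against 7.11, 7.25 and 7.22 in the control gapmer arrays. The groups were separate by 0.037, and the log2 difference was -0.22 (limma adjusted p = 0.198). HSD17B4, a peroxisomal enzyme that shortens the side chain, had a difference of 0.15 (limma adjusted p = 0.379) with overlapping groups.

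Of 16 listed genes for the scaffold and traffic of the canalicular membrane, the face of the hepatocyte that secretes bile, 11 were measured and 0 passed by limma. At an unadjusted p under 0.05 there was 1, HAX1. The groups did not overlap in 4 of the 11. Over all genes 8.41% passed, 25.0% had an unadjusted p under 0.05 and 31.7% had groups that did not overlap. Their log2 differences ran from -0.21 to 0.20 with a median of 0.04, equal to that of all genes. HAX1, a mostly mitochondrial protein that protects against cell death, differed by 0.20 (limma adjusted p = 0.122). The 2 alternatives in which it passed were those in which SLC51B passed. MYO5B, the motor of recycling endosomes beneath the apical membrane, had a difference of -0.21 (limma adjusted p = 0.242). EZR, which ties the membrane to actin, was bright, at 10.26 over the 6 arrays.

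**Figure D4:**
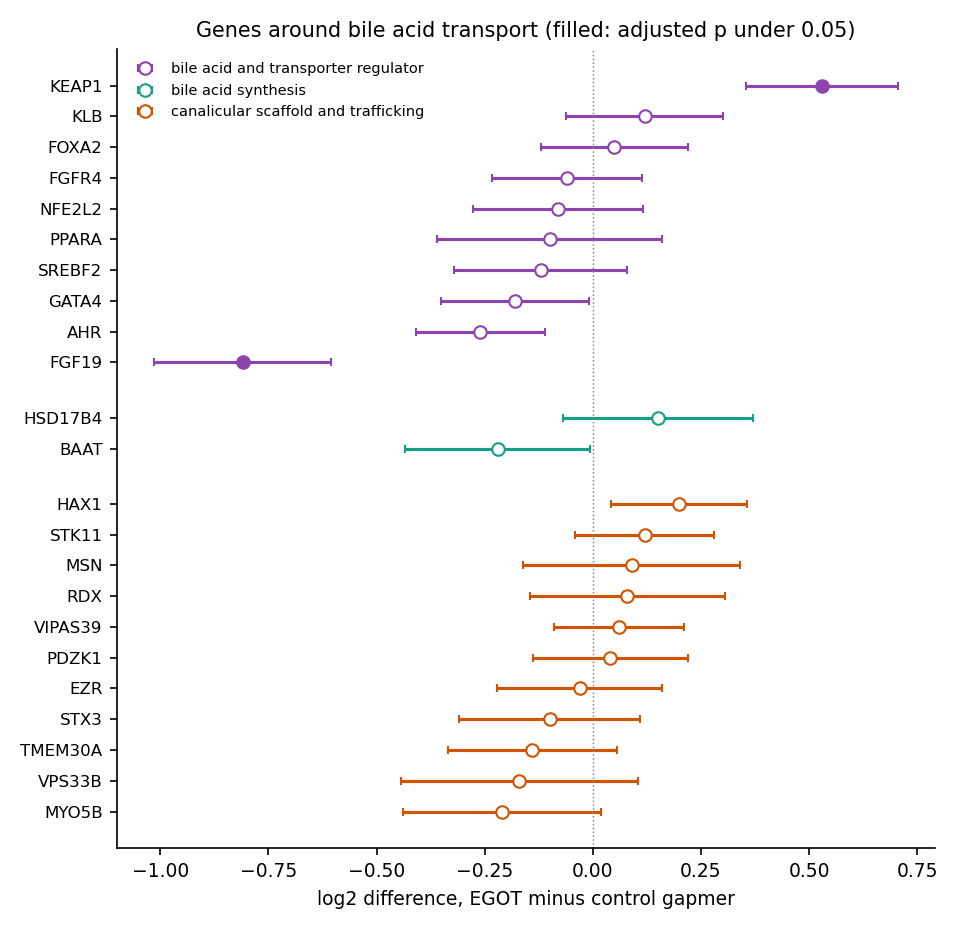
Log2 difference, EGOT gapmer minus control gapmer, of the measured regulators (purple), synthesis genes (green) and scaffold and traffic genes (orange) around bile acid transport; bars are 95% intervals before adjustment and filled points passed the threshold over all genes. KEAP1, at 0.53, and FGF19, at -0.81, are the filled points.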

How the data were processed

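Total RNA of 6 HuH7 samples was measured on an Affymetrix Human Gene ST array. The deposited values are on the log2 scale and come from RMA, as the submitters' processing notes state. For the software, version, build and probe set filter, the sources used here give nothing. Values ran from 1.05 to 14.1. Of 44629 probe sets, 15835 carried 1 gene symbol in GEO's platform annotation, 0 carried several and 28794 were not named here. A gene was represented by its brightest probe set, and each of the 4 members had 1. All symbols matched the RefSeq gene table of GRCh38.p14.

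Arrays were grouped by title. All 14812 genes were fitted with limma 3.58.1 in R 4.3.3 (lmFit, eBayes, two-sided, 7.19 total degrees of freedom). The fit was tested on simulated data. Exact permutation tests ran over the 20 assignments of arrays. Promoter windows come from RefSeq. With 3 arrays per group, the number of arrays limits precision.

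Named are all members, genes of the 3 fixed lists that passed, and the 2 of each list with the smallest p; NFE2L2, FGFR4, KLB, AHR, EZR and the marker genes were named after their values were seen. Members, lists and rules were chosen with earlier results of these data known. Alternatives were another scaling (2 methods), a variance trend, the mean of probe sets, brighter genes, removal of a lowess trend on gene span, the replicate number as a block, and leaving out each array.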

Additional observations from a re-analysis of the deposited data

How the results depend on the processing

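Among all 14812 genes, 1245 passed in the values as deposited and 2513 with a variance trend. Of the 7406 brighter genes 2547 passed. After removal of the trend on gene span 671 of all genes passed, and 9 to 579 with 1 array left out. Of the genes called, 61.8% were higher as deposited, 50.2% after another quantile normalization, 48.8% after cyclic loess and 51.6% after removal of the span trend. With the replicate number as a replicate block limma called 0 genes, and 3438 had an unadjusted p under 0.05. Deviations of same-numbered arrays correlated at -0.0307, -0.054 and 0.0394, so the numbers were not taken to pair the arrays. Under that block EGOT was at -1.76 (limma adjusted p = 0.0543), and 0 of the regulators passed, against 2 as deposited. With 1 array left out 0 to 2 regulators passed, and EGOT passed each time, at -1.92 to -1.67. The calls among the members and in the export class each went to 1 (SLC51B), and those among the scaffold and traffic genes to 1 (HAX1), with a variance trend and among the brighter genes. SLC51A and SLCO4A1-AS1 turned in sign without EGOT gapmer replicate 3, to 0.01 and 0.12, the upper ends of ranges that began at -0.30 and -0.26 with 1 array left out. The median log2 difference of the export class, 0.11, ran from -0.02 to 0.20 with 1 array left out. The uptake and intracellular classes had no member, so their alternatives gave no value. SLC51A, the antisense RNAs and EGOT were too dim for the set of brighter genes. The causes of these changes were not tested.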
